A study of Mus musculus with 6 samples.

Results

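The genes described here make up the endothelin and vasoactive peptide axis: endothelin-1 (EDN1), its converting enzymes (ECE1, ECE2), its receptors (EDNRA, EDNRB), the angiotensin II receptor AGTR1, the bradykinin receptors (BDKRB1, BDKRB2), the natriuretic peptide receptor NPR3 and neprilysin (MME). They were found by their symbol in the deposited gene table, where 10 of 10 had a row among 20323 genes and none had a repeated symbol. RFB, a kidney fibroblast line by its labels, gave the RNA. It had been treated with TGF-β+CXCL10 for 3 of the libraries and with TGF-β alone for the other 3. Both groups thus carried TGF-β, the cytokine used to push fibroblasts toward a fibrotic state, and no untreated cells were analysed here. CXCL10 is a chemokine whose known receptor is CXCR3. The labels call the line mouse, while all 20323 rows are human Ensembl genes, so each level below is one on a human gene model.

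Endothelin-1 is made as a long precursor that furin-type proteases cut to big endothelin-1, which ECE1 or ECE2 then trims to the active peptide. The active peptide acts on EDNRA and EDNRB, receptors that couple to Gq, and in the kidney it is known as a constrictor of vessels and a driver of matrix deposition. Angiotensin II acts through AGTR1. Bradykinin acts through BDKRB2, which many cells carry at rest, while its shortened forms act through BDKRB1, which is known to be induced in inflamed tissue. NPR3 clears natriuretic peptides from the cell's surroundings, and MME, a membrane peptidase, degrades bradykinin, natriuretic peptides and endothelin-1.

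The libraries held 12838106 to 15587409 counts, with a count on 13939 to 14224 genes. All 10 fibroblast markers examined had counts. A count was also found for 9 of 10 endothelial, 8 of 8 smooth muscle and pericyte and 5 of 6 immune markers. The presence of counts alone thus does not tell cell types apart. The fibroblast list summed to 50400 to 54690 CPM (counts scaled to library size) with CXCL10 and 52740 to 60200 in TGF-β libraries, most of it COL1A1. The kidney epithelial list summed to 3178 to 3440 and 2961 to 3449 CPM, and the immune list to 42.2 to 48.1 and 42.5 to 47.9. In the blocked fit given below, 2 fibroblast markers were higher and 3 lower, against 9.71% and 8.04% of all tested genes. Of 11 kidney epithelial markers 7 had a count, while CDH16, PAX2, LRP2 and UMOD were at 0 in all 6 libraries. The keratin KRT8 stood at 1893 to 2132 CPM in TGF-β+CXCL10 libraries and 1945 to 2118 in TGF-β libraries. In the same order, KRT18 was at 1266 to 1288 and 992 to 1309 CPM. AQP1 was at 10.75 to 12.52 and 11.35 to 14.3 CPM, and PAX8 at 6.33 to 8.69 and 5.92 to 6.46 CPM. EPCAM, CDH1 and SLC12A1 were lower than PAX8 in every library. CXCR3 had 0 counts in every library, CXCL10 had at most 4, and SUV39H1, the methyltransferase of the study's title, lay between 3.73 and 7.12 CPM. Replicate 1 of each group stood apart from replicates 2 and 3 of that group, and its values are given beside the results on the 10 genes. Chi-square over its degrees of freedom came to 8.44 and 8.81 for TGF-β+CXCL10 replicate 1 against the others of its group, and to 16.2 and 17.4 for TGF-β replicate 1. Between replicates 2 and 3 it was 2.79 with CXCL10 and 3.07 in TGF-β libraries.

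With CXCL10, EDN1 and both bradykinin receptors were higher and EDNRB was lower when libraries were compared by replicate number. ECE1, MME and NPR3 were not called in that comparison. The principal design, which leaves the replicate number out, called 0 of these genes. Of the 10 genes 7 had enough counts to be tested. EdgeR's quasi-likelihood test with the replicate number as a block, adjusted over 11970 genes at a threshold of 0.05, called 3 of them higher and 1 lower, where it called 9.71% of all tested genes higher and 8.04% lower (17.7% either way). DESeq2 with the block called the same number in each direction, against 5.83% of its genes higher and 3.87% lower (9.7% either way). The log2 changes in edgeR's blocked fit were 1.63 for EDN1, 0.94 for BDKRB2, 0.49 for BDKRB1 and -1.76 for EDNRB, beside a median of -0.01 over all genes tested. Without the block, the principal design, edgeR called 0 of the 7 genes and 0.0% of all genes, and the lowest adjusted p was 0.161. An unadjusted p under 0.05 was found for 4 of the 7 genes and 2449 of all genes. Without the block limma-voom also called 0 of them, and DESeq2, which called 1.74% of its genes higher and 1.65% lower, called EDN1 of them. Scaled by library totals with the block, 3 were higher and 1 lower, against 7.33% and 11.4% of all genes. Without TGF-β replicate 1 and without the block, 3 were higher and 0 lower, against 10.7% and 8.61%. The labels do not say that a number marks a shared culture or day, and the pairing comes from the counts, mainly those of replicate 1.

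**Figure D1:**
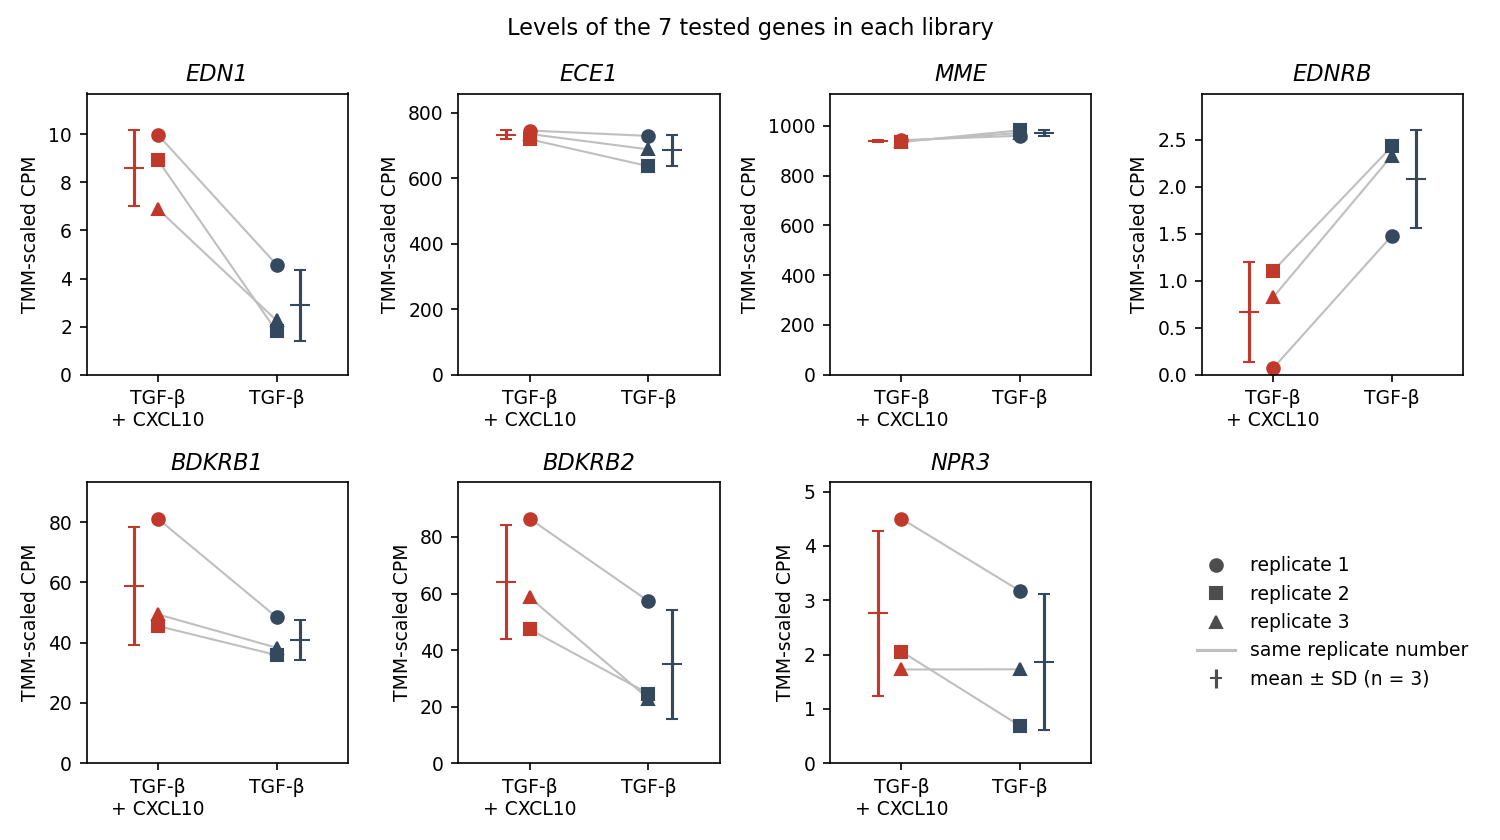
TMM-scaled CPM (vertical axes, each from 0) of the 7 tested genes in TGF-β+CXCL10 (left in each panel, red) and TGF-β libraries (right, dark blue), with a marker shape per replicate number, grey lines joining libraries of 1 number and bars for mean ± SD (n = 3 each). EDN1 lay between 6.90 and 9.98 CPM with CXCL10 and between 1.81 and 4.58 CPM in TGF-β libraries, EDNRB ran the other way, and ECE1 and MME were nearly level.

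EDN1 (ENSG00000078401), the ligand, had 142, 113 and 92 counts in the TGF-β+CXCL10 libraries of replicates 1, 2 and 3, against 65, 29 and 30 counts in the TGF-β libraries. Scaled for depth and composition, this was 9.98, 8.93 and 6.90 CPM with CXCL10 and 4.58, 1.81 and 2.25 CPM in TGF-β libraries. Every TGF-β+CXCL10 library was above every TGF-β library, and TGF-β replicate 1 was the highest of its group. Groups also did not overlap, in the higher direction, for 11.1% of all tested genes.

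The means of EDN1 were 8.60 ± 1.57 CPM with CXCL10 and 2.88 ± 1.49 CPM in TGF-β libraries (SD, n = 3 each). Within numbers, the log2 CPM differences were 1.10, 2.22 and 1.55, so that replicate 1 gave the smallest. EdgeR with the block gave a 3.10-fold rise (log2 1.63, SE 0.24, 95% confidence interval 1.11 to 2.15, adjusted p = 0.000465), and without the block a log2 value of 1.58 (SE 0.32, adjusted p = 0.161). Leaving out TGF-β replicate 1 and the block moved the value to 2.09 (adjusted p = 0.000748). The authors' deposited table gives EDN1 a log2 ratio of 1.54 with an adjusted p of 0.00465, the only one of the 10 genes under 0.05 there, where 0.714% of its genes with a count were higher and 0.618% lower at that threshold.

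Endothelin-1 is best known as a product of endothelial cells. Of 10 endothelial markers, CDH5, KDR and EMCN had at most 3 counts in any library, and EMCN was at 0 in all. The list summed to 61.3 to 69.1 CPM in TGF-β+CXCL10 libraries and 63.5 to 67.6 CPM in TGF-β libraries, most of it from 1 gene, TEK, at 44.7 to 48.5 CPM with CXCL10 and 47.7 to 48.5 CPM in TGF-β libraries. Of these markers only VWF, TEK, EGFL7 and ERG were tested. With the block 0 were called higher and 1 (ERG, -1.59, adjusted p = 0.0483) lower, against 9.71% and 8.04% of all tested genes. The part of endothelial RNA in the EDN1 difference was not tested.

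Of the converting enzymes, ECE1 (ENSG00000117298) was abundant and nearly level between groups. It stood at 745.3, 718.6 and 734.8 CPM with CXCL10 and 728.8, 636.4 and 687.8 CPM in TGF-β libraries. The groups overlapped, because TGF-β replicate 1 lay above TGF-β+CXCL10 replicate 2. The difference was 0.10 on the log2 scale with the block (SE 0.05, 95% confidence interval 0.0025 to 0.20, adjusted p = 0.153) and 0.10 without it (-0.04 to 0.24, adjusted p = 0.393). Without both libraries of replicate 1, the blocked fit on the other 2 pairs gave 0.14 with an adjusted p of 0.00306, which passed.

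ECE2 (ENSG00000145194), the second converting enzyme, had 0 counts in each of the 6 libraries. A count of 0 leaves room for up to 3 counts, or 0.192 to 0.234 CPM depending on the library, for counting error only. In the human annotation ECE2 overlaps EEF1AKMT4 and a read-through gene that joins them. The read-through row EEF1AKMT4-ECE2 was also at 0 throughout, while EEF1AKMT4 had 57, 37 and 43 counts with CXCL10 and 43, 35 and 38 in TGF-β libraries. How reads in the shared part were assigned is not given in the sources used here, so the 0 for ECE2 is a value under that assignment.

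MME (ENSG00000196549), the peptide-degrading enzyme of the group, was the most abundant of the 10 genes. It stood at 941.9, 934.5 and 938.1 CPM with CXCL10 and 959.9, 982.2 and 971.0 CPM in TGF-β libraries. The groups did not overlap, as was so in the lower direction for 11.2% of tested genes, but the gap was small. The log2 difference was -0.05 with the block (SE 0.04, 95% confidence interval -0.14 to 0.04, adjusted p = 0.467), an interval that holds 0.

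The endothelin receptors were scarce. EDNRB (ENSG00000136160), the receptor that also clears endothelin-1, had 1, 14 and 11 counts in TGF-β+CXCL10 replicates 1, 2 and 3, against 21, 39 and 31 counts in the TGF-β libraries. In CPM this was 0.0703, 1.11 and 0.824 with CXCL10 and 1.48, 2.43 and 2.33 in TGF-β libraries. No TGF-β+CXCL10 library reached the lowest TGF-β library, and replicate 1 was the lowest of each group.

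EDNRB averaged 0.667 ± 0.536 CPM with CXCL10 and 2.08 ± 0.522 CPM in TGF-β libraries (SD, n = 3 each). The differences within numbers were -2.93, -1.04 and -1.35 on the log2 scale, so the pair with a single count gave the largest. EdgeR with the block gave a log2 change of -1.76 (SE 0.50, 95% confidence interval -2.84 to -0.69, adjusted p = 0.0269), a 3.39-fold fall, and without the block -1.66 (adjusted p = 0.187). The call ended without both libraries of replicate 1 (-1.30, adjusted p = 0.0508) and without those of replicate 3 (-1.95, adjusted p = 0.114).

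EDNRB is a gene of pericytes and endothelium as well as of fibroblasts. Of 8 smooth muscle and pericyte markers, MYH11 and RGS5 were not tested. Of the others, 5 were lower and 0 higher with the block, against 8.04% and 9.71% of all tested genes. The 8 markers summed to 1016 to 1495 CPM with CXCL10 and 1422 to 1862 CPM in TGF-β libraries. MYH11, which defines mature smooth muscle, had at most 3 counts in any library. Most of the sum was ACTA2, which TGF-β-treated fibroblasts express too. The part of these markers in the value of EDNRB was not tested, and in bulk RNA fewer cells of a kind and less RNA per cell cannot be told apart.

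EDNRA (ENSG00000151617), the receptor that mediates constriction in smooth muscle, had 0, 0 and 1 counts with CXCL10 and 1, 1 and 1 counts in TGF-β libraries. All 6 values are under the limit of 3 counts that a count of 0 allows, so no fold was taken. AGTR1 (ENSG00000144891) had 0, 1 and 0 counts with CXCL10 and 0 in each TGF-β library. Neither a difference nor a level above the floor was detectable at this depth for EDNRA or AGTR1.

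Both bradykinin receptors rose in the blocked fit. BDKRB1 (ENSG00000100739) stood at 81.1, 45.5 and 49.4 CPM with CXCL10 and 48.5, 35.9 and 38.3 CPM in TGF-β libraries. Replicate 1 was the highest of each group, and TGF-β replicate 1 lay above TGF-β+CXCL10 replicate 2, so the groups overlapped. Its change with the block was 0.49 (log2, SE 0.09, adjusted p = 0.00151), or 1.41-fold, higher in 3 of 3 pairs by 0.74, 0.34 and 0.36. Without the block the value was 0.52 (SE 0.21, adjusted p = 0.206), and leaving out TGF-β+CXCL10 replicate 1 as well brought it to 0.22 (adjusted p = 0.559). With the block and without both libraries of replicate 1 it was 0.36 (adjusted p = 0.00169).

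BDKRB2 (ENSG00000168398) stood at 86.5, 47.3 and 58.6 CPM with CXCL10 and 57.3, 24.6 and 22.8 CPM in TGF-β libraries. Here TGF-β replicate 1 was above TGF-β+CXCL10 replicate 2 and close to replicate 3, while the other TGF-β libraries were far below. The change with the block was 0.94 (log2, SE 0.11, adjusted p = 9.59e-05), or 1.91-fold, higher in 3 of 3 pairs by 0.59, 0.94 and 1.35. Without the block it was 0.88 (SE 0.33, adjusted p = 0.196), and without TGF-β replicate 1 and the block 1.44 (adjusted p = 0.00136).

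Per length, in the deposited FPKM (counts scaled by gene length and library size), BDKRB1 was the more abundant kinin receptor in every library. Its FPKM over that of BDKRB2 was 2.88, 2.81 and 2.57 with CXCL10 and 2.55, 4.54 and 5.04 in TGF-β replicates 1, 2 and 3. The TGF-β+CXCL10 libraries and TGF-β replicate 1 thus shared a low ratio, and TGF-β replicates 2 and 3 a higher one.

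NPR3 (ENSG00000113389), the clearance receptor, was low and not called. It had 64, 26 and 23 counts with CXCL10 and 45, 11 and 23 counts in TGF-β libraries. Replicate 1 was the highest of each group, and the groups overlapped in CPM. The log2 difference with the block was 0.63 (SE 0.37, 95% confidence interval -0.16 to 1.42, adjusted p = 0.274). It was 0.49, 1.41 and -0.0036 within the 3 numbers.

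**Figure D2:**
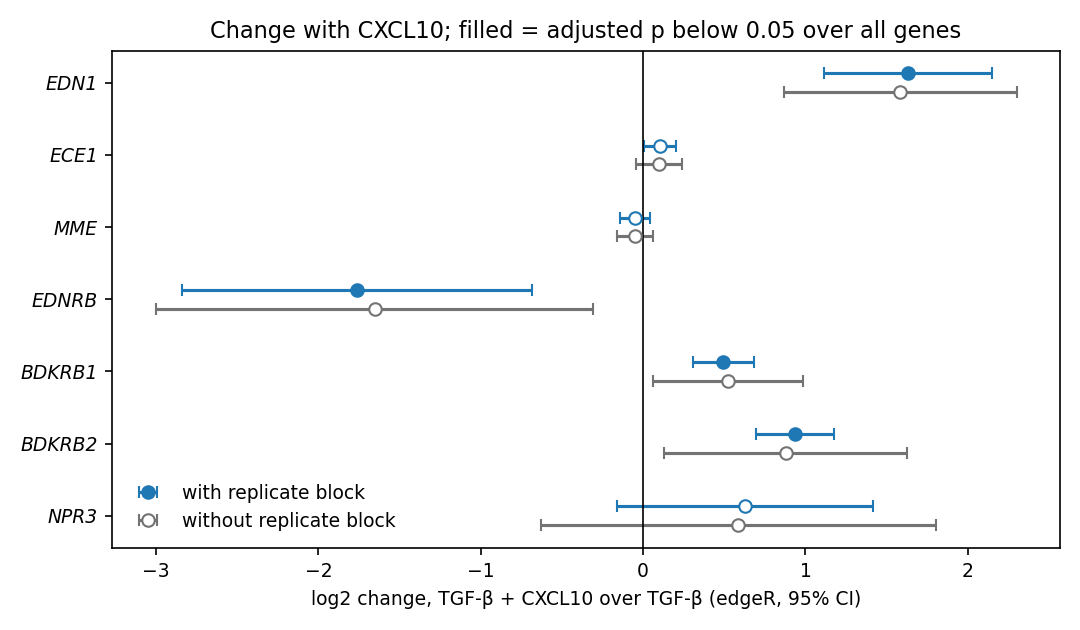
Log2 change of each tested gene (horizontal axis, TGF-β+CXCL10 over TGF-β) with its 95% confidence interval from edgeR with (blue) and without (grey) the replicate block, with filled points where the adjusted p over all genes was under 0.05. The estimates of the 2 fits lie close together, from 1.63 and 1.58 for EDN1 to -1.76 and -1.66 for EDNRB, and the intervals without the block are wider.

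The place of replicate 1 can be set beside the treatment for each gene. In TGF-β libraries, replicate 1 exceeded the mean of replicates 2 and 3 by 1.13 (log2 CPM) for EDN1, 1.27 for BDKRB2, 0.38 for BDKRB1 and 1.41 for NPR3. In TGF-β+CXCL10 libraries the same differences were 0.34, 0.71, 0.77 and 1.20. For EDNRB they were -2.36 with CXCL10 and -0.64 in TGF-β libraries. For each of these 5 genes the sign in replicate 1, in both groups, was that of its treatment estimate. In at least 1 group the shift was larger in size than the treatment estimate for BDKRB1 (0.49), BDKRB2 (0.94), NPR3 (0.63) and EDNRB (-1.76), while for EDN1 (1.63) it was smaller in both. For MME it was 0.01 with CXCL10 and -0.02 in TGF-β libraries. ECE1, with an estimate of 0.10, had shifts of the same sign, 0.04 with CXCL10 and a larger 0.14 in TGF-β libraries. What set replicate 1 apart is not given in the labels, and its part in the values was not tested.

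**Figure D3:**
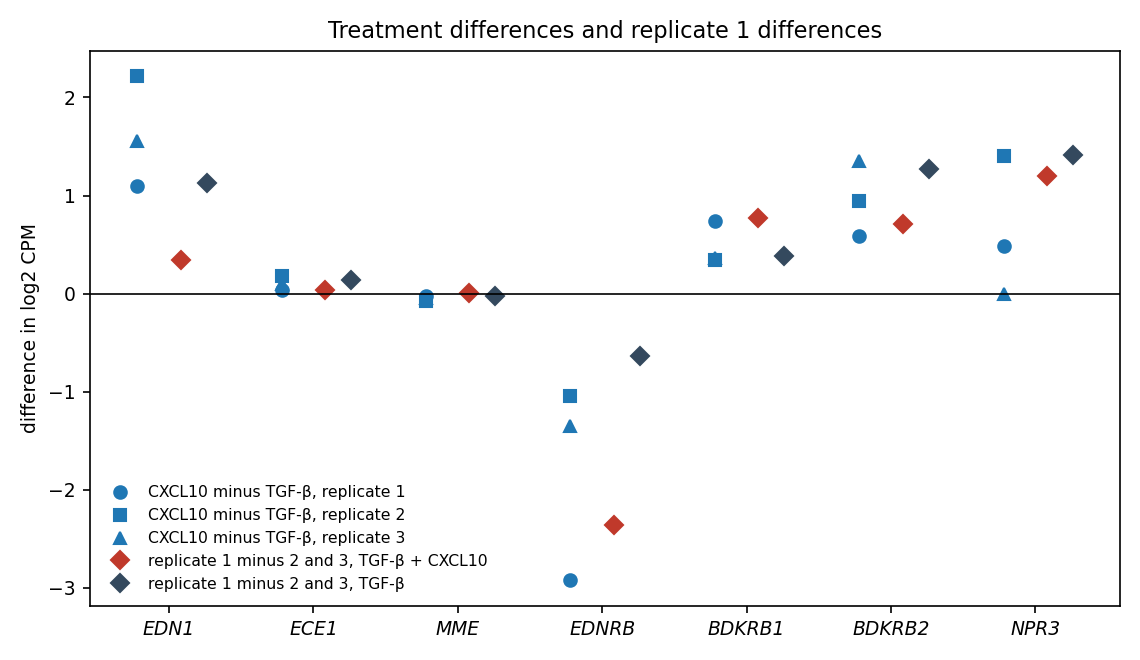
Differences in log2 CPM (vertical axis) for the 7 tested genes: TGF-β+CXCL10 minus TGF-β within each replicate number (blue, 1 shape per number), and replicate 1 minus the mean of replicates 2 and 3 in TGF-β+CXCL10 (red) and in TGF-β libraries (dark blue). For EDN1, BDKRB1 and BDKRB2 all 5 points lie above 0 and for EDNRB all 5 lie below it, while the pair differences of MME run from -0.07 to -0.03.

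By FPKM, the genes covered a wide range. MME averaged 228 FPKM over the 6 libraries (220 to 242), above 98.0% of tested genes, and ECE1 160.5 FPKM (149 to 166). BDKRB1 followed at 38.1 FPKM (28.4 to 61.3), BDKRB2 at 12.5 (5.94 to 21.3) and EDN1 at 2.79 (0.914 to 4.82). EDNRB at 0.590 and NPR3 at 0.527 FPKM were above only 5.95% and 5.16% of tested genes.

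Neighbours in that order from MME to EDN1 did not overlap in any library. EDNRB and NPR3 overlapped each other, so their order is not resolved. EDN1 and EDNRB overlapped in TGF-β libraries, at 0.914 to 2.24 FPKM for EDN1 and 0.661 to 1.27 FPKM for EDNRB. In TGF-β+CXCL10 libraries they were apart, at 3.34 to 4.82 FPKM for EDN1 and 0.044 to 0.481 FPKM for EDNRB. In every library ECE1 and MME were thus measured at higher FPKM than EDN1 or EDNRB.

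**Figure D4:**
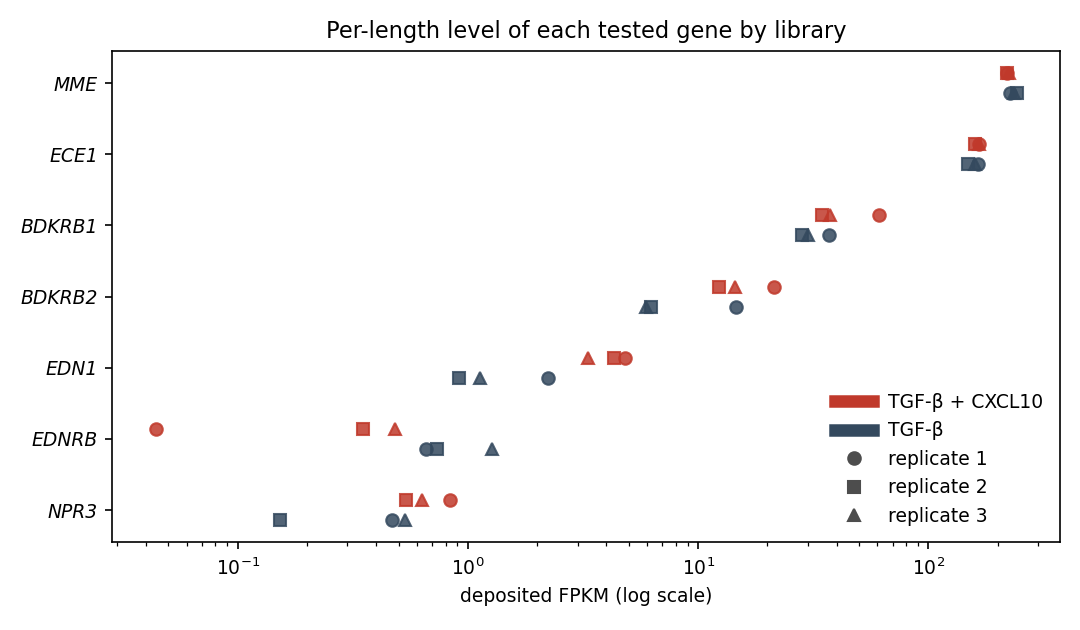
Deposited FPKM (horizontal axis, log scale) of the 7 tested genes in each library, ordered by mean, with TGF-β+CXCL10 in red above TGF-β in dark blue and a marker shape per replicate number. MME and ECE1 lie above 148 FPKM in every library, and the EDNRB value of TGF-β+CXCL10 replicate 1, from 1 count, lies lowest at 0.044 FPKM.

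The FPKM of EDNRB and NPR3 also depended on a length that differed between libraries. Dividing counts by FPKM and by the library total gives the gene length behind each value. For EDN1 it was 2.04 kb in every library and for BDKRB1 1.30 kb. For EDNRB it was 3.13 and 1.69 kb in TGF-β+CXCL10 replicates 2 and 3 and 2.23, 3.41 and 1.86 kb in the TGF-β libraries. For NPR3 it ranged from 2.69 to 6.74 kb, and the NPR3 groups, which overlapped in CPM, did not overlap in FPKM.

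Among 11327 genes with at least 10 counts in each library, the longest of the 6 lengths exceeded the shortest by more than 1.5 times for 11.1%, with a median ratio of 1.10. On log2(FPKM + 1) with the block, limma-trend gave EDNRB -0.55 with an adjusted p of 0.0503, which missed the threshold, while EDN1 (1.12, adjusted p = 0.0173), BDKRB2 (0.85, 0.0221) and BDKRB1 (0.43, 0.0497) were still called. Adding 0.1 in place of 1, which compresses low genes less, gave EDNRB -1.51 with an adjusted p of 0.0678, so it was not called on either FPKM scale.

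The genes whose profile over the 6 libraries was closest to that of EDN1 were TMEM158, ETV4, FOXD1, SPRY4 and PODXL, among 9704 tested genes with at least 5 CPM. The measure was the root mean square difference between log2 CPM values centred on each gene's own mean, which was 0.209, 0.218, 0.219, 0.252 and 0.280 for these genes, against a median of 0.917. A gene level across all libraries would score 0.912, the spread of EDN1 about its own mean, so the median is near that of a level gene. SPRY4, a feedback inhibitor of receptor tyrosine kinase signalling, stood at 20.5, 15.6 and 15.4 CPM with CXCL10 and 11.8, 4.23 and 7.14 CPM in TGF-β libraries. ETV4, an ETS-family transcription factor, stood at 16.5, 14.5 and 14.8 CPM with CXCL10 and 10.4, 4.11 and 5.56 CPM in TGF-β libraries. Since these 5 genes were chosen for their likeness to EDN1 in the same libraries, their order across libraries is a description only.

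The rest of the vasoactive pathway was followed in 8 lists that held 121 genes, of which 74 were tested. With the block 11 of the 74 were higher (14.9%, against 9.71% of all genes) and 9 lower (12.2%, against 8.04%), with a median log2 change of -0.02. Without the block edgeR called 0 of them. Without both libraries of replicate 1 the blocked fit called 13 of 77 higher (16.9%, against 12.7% of all genes) and 14 lower (18.2%, against 10.9%). DESeq2 with the block called 6 of 74 higher (8.11%, against 5.83%) and 5 lower (6.76%, against 3.87%).

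Of 8 genes for other endothelins and precursor-cutting proteases, 3 were tested and 1 rose with the block, as did 9.71% of all tested genes. The 1 gene was FURIN, which cuts the endothelin-1 precursor and also activates natriuretic peptide precursors. FURIN stood at 502.4, 455.0 and 455.3 CPM with CXCL10 and 424.8, 321.4 and 335.3 CPM in TGF-β libraries, with no overlap (log2 0.39, SE 0.05, adjusted p = 0.000269). Groups did not overlap in the higher direction for 11.1% of tested genes. PCSK6 (-0.17) and PCSK7 (0.15) were not called. The ligands EDN2 and EDN3, named after their values were seen, had 0 counts in all 6 libraries, so EDN1 was the sole endothelin gene with counts.

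Of 12 renin-angiotensin genes 7 were tested and 0 were called with the block, with a median of 0.00. Of all tested genes 17.7% were called either way in that fit. The lowest p-values were those of the aminopeptidase ANPEP (0.13, adjusted p = 0.0934), AGTRAP, which binds the angiotensin II receptor (0.22, adjusted p = 0.138), and LNPEP (0.16, adjusted p = 0.175). In the same fit 2 of these 7 genes had an unadjusted p under 0.05 besides LNPEP at 0.0555, and DESeq2 with the block also called 0. Of 10 kinin genes and kinin-degrading peptidases 4 were tested, and with the block 1 was lower, as were 8.04% of all tested genes. SERPING1, the C1 inhibitor that restrains kinin release, fell (-0.26, SE 0.06, adjusted p = 0.0138), at 66.3, 81.0 and 77.6 CPM with CXCL10 and 88.0, 89.0 and 91.9 CPM in TGF-β libraries. SERPING1 was not called by DESeq2 with the block (-0.26, adjusted p = 0.0579) or without TGF-β replicate 1 and the block (-0.27, adjusted p = 0.0555). CPD (-0.13) and PREP (0.23) were not called.

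In the list of natriuretic peptide and nitric oxide-cGMP genes 8 of 19 were tested, and FURIN rose while PDE5A and NPR1 fell. With the block 9.71% of all tested genes were higher and 8.04% lower. PDE5A, which breaks down cGMP, stood at 43.7, 64.3 and 56.7 CPM with CXCL10 and 62.5, 115 and 125 CPM in TGF-β libraries (log2 -0.84, SE 0.09, adjusted p = 4.71e-05). The groups overlapped through TGF-β replicate 1. NPR1, the receptor that makes cGMP on binding natriuretic peptides, stood at 11.8, 12.8 and 15.3 CPM with CXCL10 and 16.8, 17.4 and 21.6 CPM in TGF-β libraries (-0.48, SE 0.11, adjusted p = 0.00863). Its groups did not overlap, as was so in the lower direction for 11.2% of tested genes. Without the block both had an adjusted p of 0.161, and DESeq2 with the block called PDE5A but not NPR1 (-0.48, adjusted p = 0.0713).

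Of 9 adrenomedullin and calcitonin-receptor genes 3 were tested and 0 called with the block, where 17.7% of all tested genes were called. RAMP1, a partner of the calcitonin-family receptors, was at 0.61 (adjusted p = 0.0553), ADM2 at -0.20 (0.0921) and ADM at 0.15 (0.337). RAMP1 and ADM2 both had an unadjusted p under 0.05, and DESeq2 with the block called 0. Without both libraries of replicate 1, 1 of the 3 was higher in the blocked fit, as were 12.7% of all tested genes.

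Of 17 other vasoactive peptides and receptors 5 were tested and 2 rose, both of them protease-activated receptors. Of all tested genes 9.71% were higher with the block. F2RL1, which trypsin-like proteases switch on, stood at 77.9, 47.1 and 47.1 CPM with CXCL10 and 45.5, 22.2 and 19.8 CPM in TGF-β libraries (log2 1.02, SE 0.09, adjusted p = 1.30e-05). F2R, the thrombin receptor, stood at 40.9, 35.3 and 36.6 CPM with CXCL10 and 30.6, 25.8 and 26.5 CPM in TGF-β libraries (0.44, SE 0.08, adjusted p = 0.00208). Neither gene overlapped between groups, as was so in the higher direction for 11.1% of tested genes. The oxytocin receptor OXTR was not called (0.53, adjusted p = 0.209).

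Downstream of these receptors, 25 of 27 genes for Gq and G12 signalling and receptor regulation were tested, and 4 rose while 3 fell. In the same blocked fit 9.71% of all tested genes were higher and 8.04% lower. GNA13, a G12-family subunit, fell (-0.35, SE 0.05, adjusted p = 0.000574), as did the calcium channel ITPR2 (-0.27, SE 0.06, adjusted p = 0.00996). RGS4, which shuts off Gq signalling, rose in the blocked fit (1.54, SE 0.37, adjusted p = 0.0113; 0.371 without the block). Its levels were 9.56, 5.37 and 3.67 CPM with CXCL10 and 6.76, 0.872 and 0.601 CPM in TGF-β libraries, so TGF-β replicate 1 lay among the TGF-β+CXCL10 libraries. Without both libraries of replicate 1 the blocked value was 2.60 (adjusted p = 1.11e-06). DESeq2 with the block called 0 of this list higher and 1, GNA13, lower.

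Of 20 factors known to act at the EDN1 promoter all were tested, and 4 rose while 3 fell, with a list median of -0.13. The blocked fit called 9.71% of all tested genes higher and 8.04% lower. FOSL1, a partner of JUN in AP-1, stood at 34.2, 25.9 and 23.8 CPM with CXCL10 and 19.4, 15.8 and 15.9 CPM in TGF-β libraries (0.71, SE 0.10, adjusted p = 0.000289). GATA6 rose as well (0.60, SE 0.10, adjusted p = 0.00136) and VEZF1 fell (-0.51, SE 0.10, adjusted p = 0.00324). The groups did not overlap for these 3 genes, as was so for 11.1% of tested genes in the higher and 11.2% in the lower direction. The 3 were named for their low p in the same libraries, so the lack of overlap is no separate evidence. Without the block each had an adjusted p of 0.161.

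**Figure D5:**
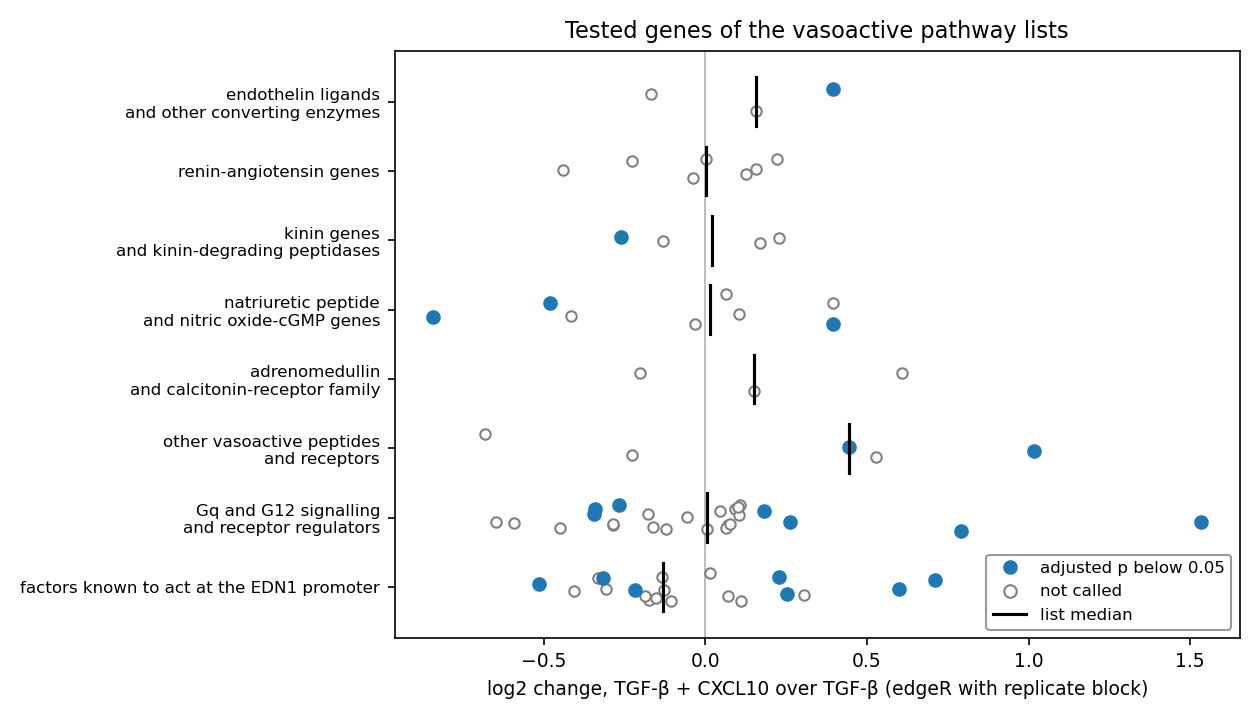
Log2 change (horizontal axis, TGF-β+CXCL10 over TGF-β, edgeR with the replicate block) of each tested gene in the 8 pathway lists, filled where the adjusted p over all genes was under 0.05, with the list median as a black bar. Called genes lie on both sides of 0 in the cGMP, Gq and EDN1 promoter factor lists, and the 2 called receptors of the other vasoactive list lie at 0.44 and 1.02.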

How the data were processed

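Per the labels' protocols, an RNeasy kit was used for RNA and a SMARTer kit for the mRNA-seq libraries. GRCm38 and mm10 are named in the submitters' processing notes, against the human rows of the table. Aligner, counter and strand setting: not given in the sources used here. The deposited table holds raw counts and FPKM per library, and the authors' mean FPKM (0 written as 0.001), log2 ratio, p-value and adjusted p, whose test is not stated. The CXCL10 titles carry a volume of 5 µl with no concentration. The design text of the series speaks of a SUV39H1 knockdown, which no sample label names, so groups follow the sample labels.

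EdgeR 4.0.16 (R 4.3.3) tested the deposited counts (TMM scaling, low counts removed by filterByExpr at a minimum of 10 and a total of 15, Benjamini-Hochberg over all genes), without a block as the principal design and with the replicate number as a block. Log2 CPM used a prior count of 2. Alternatives used DESeq2 1.42.0, limma 3.58.1 (voom, and trend on log2 FPKM plus 1 or 0.1), other scaling, no filter and fewer libraries. The fits were tested on simulated data. The simulated counts held no effect of the replicate number, so they cannot decide between the fits with and without the block. To check the pairing, each library's deviation from its group mean was correlated across genes with that of its number in the other group. The values were 0.330, 0.121 and 0.163, all above 0.1, so the numbers were taken to pair libraries, from the counts and not from the labels. Between replicates 2 and 3 of different groups the values were 0.0803 and 0.0825, close to those of the matched pairs, so the pairing rests mainly on replicate 1. Deviations within a group cancel out, so a likeness of replicate 1 between groups by itself makes the values among replicates 2 and 3 positive. The check thus cannot show whether replicates 2 and 3 are paired by number. Separate cultures are not stated for the replicates, so the spread between these libraries may be technical. P-values without the block measure that spread within groups. P-values with the block measure what is left of it after differences between replicate numbers are removed.

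At totals of 12838106 to 15587409, the 3 counts that a 0 allows equal 0.192 to 0.234 CPM, for counting error only. The 10 genes and the gene lists were chosen with earlier results of these data known. Named beside them are up to 3 genes per list with the lowest p in the blocked fit and the 5 genes closest to EDN1. EDN2 and EDN3 were named after their values were seen. No sequences are printed, since the sequence tables used here are of mouse genes.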

Additional observations from a re-analysis of the deposited data

How the results depend on the processing

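Each of the 7 tested genes kept its direction in every alternative run (21, or 20 for EDNRB and NPR3, whose adjusted p in DESeq2 without the block was not given). The log2 change ranged from 1.12 to 2.09 for EDN1, 0.60 to 1.44 for BDKRB2, 0.22 to 0.68 for BDKRB1, 0.05 to 0.15 for ECE1, 0.03 to 1.23 for NPR3, -0.09 to -0.04 for MME and -2.24 to -0.55 for EDNRB. EDN1 was called in 10 alternatives, BDKRB1 and BDKRB2 in 9 each, EDNRB in 4, ECE1 in 1, and MME and NPR3 in 0. The calls turned on the replicate block. EdgeR called 0 genes in either direction without it, and 1162 genes higher and 962 lower with it, among them 3 and 1 of the 10 genes and 11 and 9 pathway genes. The calls of DESeq2 were 172 higher and 163 lower (1 and 0 of the 10, 4 and 1 pathway genes), and with the replicate block 684 and 454 (3 and 1, 6 and 5). Library totals with the block gave 877 and 1359 (3 and 1, 8 and 13). With limma-trend and the block, chosen after seeing the data, log2(FPKM + 1) gave 337 and 352 and log2(FPKM + 0.1) gave 332 and 347 (for both 3 and 0, 3 and 4). Voom, other size factors or totals without the block, no filter and FPKM without the block gave 0. Leaving out single libraries without the block gave 0 to 1302 genes higher and 0 to 1046 lower (0 to 3 and 0 of the 10, 0 to 13 and 0 to 12 pathway genes), and all such calls came without TGF-β replicate 1. Leaving out a replicate number with the block gave 539 to 1533 higher and 365 to 1313 lower (3 to 4 and 0 to 1 of the 10, 6 to 13 and 4 to 14 pathway genes), in detail 1533 and 1313 without replicate 1 (4 and 0, 13 and 14), 680 and 561 without replicate 2 (3 and 1, 6 and 7), and 539 and 365 without replicate 3 (3 and 0, 6 and 4). The cause of these differences was not tested. Depth limits EDNRA, AGTR1, ECE2, EDNRB and NPR3, of which no library held more than 64 counts.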
